A study of Mus musculus with 8 samples.

Results

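The hexosamine pathway makes UDP-N-acetylglucosamine (UDP-GlcNAc), the sugar donor of protein O-GlcNAc, and 9 mouse genes of this pathway and of its branches were followed here. They were taken by name as the enzymes of this pathway, with earlier results of these data known: Gfpt1, Gnpnat1, Pgm3, Uap1 and Nagk, which make or salvage UDP-GlcNAc, Ugp2 and Ugdh, which make UDP-glucose and UDP-glucuronate, and Ogt and Oga, which add and remove O-GlcNAc. Oga is also known as Mgea5. The count table held 54838 genes, and the 9 were all found in it and all passed the filter on low counts that left 10911 genes for testing.

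The samples were acute myeloid leukemia (AML) cells that carry the RUNX1-RUNX1T1 fusion, on a C57BL/6 background, grown in Ptprca recipient mice. The sample labels give sub-lethal irradiation of the recipients, whereas the study's methods name irradiation for its other AML models and not for this one. In 4 samples the mice had received Vehicle, and in the other 4 they had received AG636, an inhibitor of DHODH, by oral gavage at 100 mg/kg b.i.d. Treatment lasted 1 day, and immature cells were obtained by sorting for high cKit, with absent or low CD11b in the sorting descriptions. DHODH catalyzes a step of de novo pyrimidine synthesis. The comparison thus asks how leukemic cells express genes of UDP-sugar synthesis and O-GlcNAc cycling when pyrimidine synthesis is blocked. Whether a sample was 1 mouse, and whether its cells came from bone marrow or from spleen, was not given per sample. The study's legend for these data gives fewer mice per group than the 4 samples used here, so that samples of a group may share a mouse, and every SD, interval and p-value given here treats the 4 as independent.

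As background, GFPT1 converts fructose 6-phosphate and glutamine into glucosamine 6-phosphate and is the rate-limiting enzyme of the pathway. GNPNAT1 then acetylates it, PGM3 moves the phosphate, and UAP1 joins the product to UTP to give UDP-GlcNAc, whereas NAGK recycles free N-acetylglucosamine into the same route. OGT transfers the sugar from UDP-GlcNAc to serine and threonine residues of nuclear and cytoplasmic proteins, and OGA takes it off again, so that this mark follows both the supply of the donor and the balance of a single pair of enzymes. These libraries measure messenger RNA, not enzyme activity, UDP-GlcNAc or O-GlcNAc.

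The sequences upstream of Ogt and Oga are shown because their transcripts carry the comparison of O-GlcNAc cycling, and the YY1 motif was searched because YY1 is a known OGT substrate. Each is the run of 250 bases before the RefSeq start in GRCm38.p6, printed 5′ to 3′ on the gene's own strand, chr19:45783554-45783803 on the minus strand for Oga and chrX:101639801-101640050 on the plus strand for Ogt. Capitals mark a match to CCATNTT, the core of the YY1 motif, on either strand.
Oga: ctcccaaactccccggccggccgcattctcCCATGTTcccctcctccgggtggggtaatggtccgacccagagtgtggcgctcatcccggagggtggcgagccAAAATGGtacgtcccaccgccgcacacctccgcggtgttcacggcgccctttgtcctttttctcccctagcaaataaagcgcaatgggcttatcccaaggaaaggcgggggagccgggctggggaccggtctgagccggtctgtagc
Ogt: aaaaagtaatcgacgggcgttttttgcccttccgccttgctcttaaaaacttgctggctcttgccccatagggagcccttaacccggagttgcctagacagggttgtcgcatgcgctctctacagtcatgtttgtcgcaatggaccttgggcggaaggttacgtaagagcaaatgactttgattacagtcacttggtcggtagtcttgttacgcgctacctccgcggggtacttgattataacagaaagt
The Oga window held 2 matches, at -220 on the strand of the gene and at -147 on the other strand, and the Ogt windows held none. CCATNTT was present in 16.1% of 32851 RefSeq promoter windows (250 bases before and 50 after the start), searched on both strands. Windows were found for 8 of the 9 genes, not for Gnpnat1, and Oga was the only one of the 8 with a CCATNTT match. TGACGTG, a core of the XBP1 motif, was present in 2.01% of all windows and in 1 member, Uap1, beginning 1 base after the start base. The E-box CACGTG was present in 7.15% of all windows and in none of these 8 genes. These matches describe letters and not binding.

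Library totals ranged from 6120030 to 7162036 counts, and were 6782514 ± 260089 in Vehicle and 6335445 ± 209758 in AG636 (SD, n = 4; two-sided exact permutation p = 0.0571, where 0.0286 is the smallest that 70 relabellings allow). No replicate pair agreed within sampling noise, with a chi-square per degree of freedom of 3.90 to 13.2 in Vehicle and 14.1 to 25.1 in AG636. Vehicle replicate 4 stood apart from its group (9.31 to 13.2 with each other replicate, against 3.90 to 4.59 among those), and AG636 replicate 3 had the fewest counts and the most genes detected (18049, against 16141 to 17546). Kit was at 155 to 177 CPM in Vehicle and 153 to 252 CPM in AG636, and Itgam, which encodes CD11b, had at most 4 counts in a sample.

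Gfpt1 was by far the most abundant of the 9 transcripts, and Gnpnat1, the next enzyme of the pathway, was the one member called, lower in AG636, a call that was lost in 9 of 19 alternatives. Levels are CPM, counts scaled to a common library size with TMM factors, and since QuantSeq reads 1 tag near the 3′ end of a transcript, they were not divided by gene length. In Vehicle the order was Gfpt1 (463 ± 92.9 CPM, SD, n = 4), Oga (121 ± 7.01), Ogt (104 ± 4.43), Uap1 (60.8 ± 8.10), Ugdh (28.9 ± 2.78), Ugp2 (25.9 ± 3.73), Nagk (20.8 ± 0.760), Gnpnat1 (19.1 ± 3.33) and Pgm3 (13.4 ± 0.633). The ranges of the first 4 did not overlap the next in line, while Ugdh, Ugp2 and Nagk each overlapped the next in line, and all 4 Pgm3 values lay below the lowest of Gnpnat1. Gfpt1 made up 54.0% of the summed CPM of the 9 genes in Vehicle and was 34.7-fold above Pgm3. In AG636 the order was Gfpt1 (630 ± 213 CPM), Ogt (136 ± 26.4), Oga (98.3 ± 18.6), Uap1 (73.8 ± 9.74), Ugdh (29.3 ± 3.94), Nagk (27.2 ± 9.32), Ugp2 (25.9 ± 8.22), Pgm3 (13.4 ± 2.91) and Gnpnat1 (11.7 ± 3.23). Gfpt1 then held 60.3% of the sum, 53.8-fold above Gnpnat1. The range of Oga overlapped those of Ogt and of Uap1, which were apart from each other. For Pgm3 and for Gnpnat1, the last 500 exon bases all lie in exons of a gene on the other strand. How reads in such shared exons were counted was not stated. The low levels of Pgm3 and Gnpnat1, their places in the order and the 34.7-fold and 53.8-fold gaps are therefore uncertain.

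**Figure D1:**
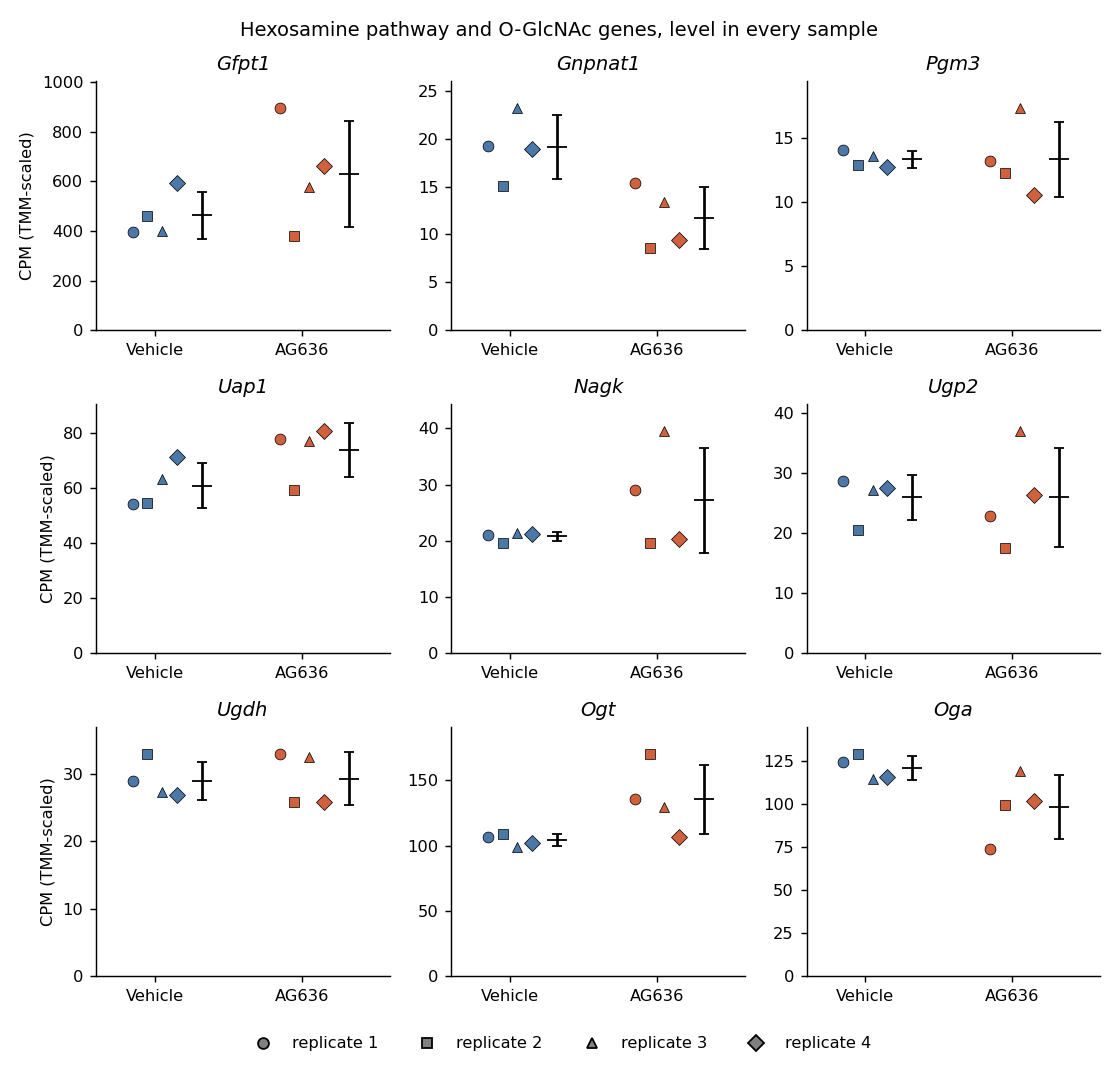
TMM-scaled CPM of each gene by group. Each point is 1 sample, marker shapes give the replicate number, and the bar is the mean ± SD of 4 samples. Gnpnat1 averaged 19.1 CPM in Vehicle and 11.7 CPM in AG636, and no gene has groups that are fully apart.

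The 2 groups were compared with limma-voom over 10911 genes, with Benjamini-Hochberg adjustment and a threshold of 0.05. Of all genes, 14.0% passed, with 8.49% lower and 5.47% higher in AG636. Of the 9 members 1 passed (lower) and 8 did not, a share no larger than that of all genes. Groups did not overlap for 22.2% of genes tested but for none of the 9, and an unadjusted p under 0.05 was reached by 30.7% of genes and by 4 members (Gnpnat1, Ogt, Oga and Uap1). The median log2 fold change was 0.01 over the members and -0.01 over all genes, and 5 members had positive and 4 negative values. The median size of a change was 0.32 in the members and 0.23 in all genes. Spread was larger in AG636 for all 9 (SD of log2 CPM), as it was for 70.7% of genes tested.

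**Figure D2:**
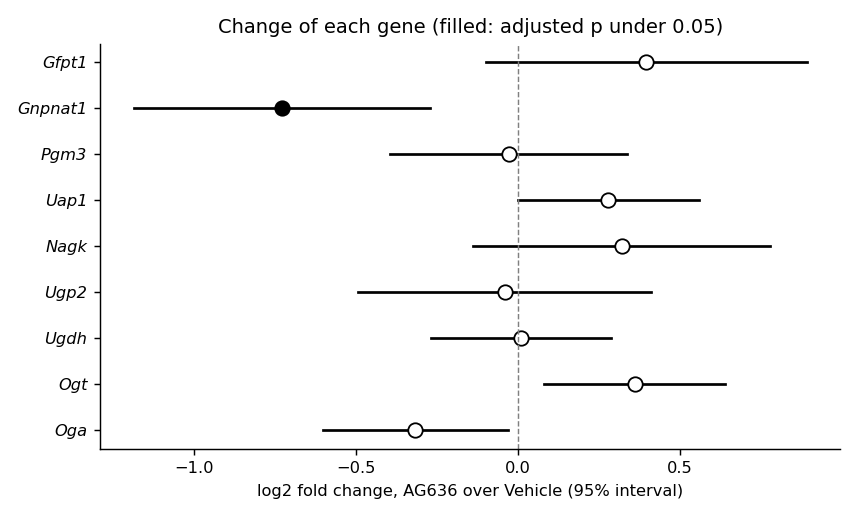
Log2 fold change of AG636 over Vehicle with its 95% interval for each gene. Filled points passed an adjusted p of 0.05. Gnpnat1 (-0.73) is the only filled point.

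Gnpnat1 (ENSMUSG00000037722, GRCm38 chr14:45376334-45404913, minus strand) encodes the acetyltransferase that turns glucosamine 6-phosphate into N-acetylglucosamine 6-phosphate. Vehicle samples 1 to 4 had 19.2, 15.1, 23.2 and 18.9 CPM, and AG636 samples 1 to 4 had 15.4, 8.62, 13.4 and 9.40 CPM. All but the highest AG636 sample lay below the lowest Vehicle sample. The fold was 0.603 (log2 fold change -0.73, SE 0.21, 95% interval -1.19 to -0.27; adjusted p = 0.0407). The call was lost without Vehicle replicate 1, 3 or 4 or AG636 replicate 2 or 4 (adjusted p 0.0826 to 0.114, log2 fold change -0.72 to -0.61), without Vehicle 4 and AG636 3 together (-0.79, adjusted p = 0.0615), and under 3 other settings listed further on. Its counts per sample were low, 54 to 150, and the last 500 exon bases at its 3′ end all lie in exons of Styx on the other strand, which had 339 counts in total against 806 for Gnpnat1. Styx itself had a log2 fold change of 0.32 (adjusted p = 0.356).

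Gfpt1 (ENSMUSG00000029992, chr6:87042846-87092197, plus strand) encodes the first and rate-limiting enzyme. Its levels in Vehicle samples 1 to 4 were 397, 462, 399 and 595 CPM, and AG636 samples 1 to 4 had 897, 382, 579 and 660 CPM. AG636 samples 1 and 4 lay above every Vehicle sample, and AG636 sample 2 lay below every Vehicle sample. The log2 fold change was 0.40 (SE 0.22, 95% interval -0.10 to 0.89; adjusted p = 0.259), so that neither no change nor a 1.86-fold increase was outside the interval. Without AG636 replicate 2 it was 0.61 (adjusted p = 0.0442) and without AG636 replicate 1 it was 0.20. Counts per sample were 2392 to 5768, so that counting error was small beside the spread of the samples.

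Pgm3 (ENSMUSG00000056131, chr9:86554377-86571842, minus strand) encodes the mutase that moves the phosphate of N-acetylglucosamine. In Vehicle samples 1 to 4 there were 14.1, 12.9, 13.6 and 12.8 CPM, and AG636 samples 1 to 4 had 13.2, 12.3, 17.4 and 10.6 CPM. The groups interleaved, and the log2 fold change was -0.03 (95% interval -0.40 to 0.34; adjusted p = 0.926). Its last 500 exon bases lie in exons of Dop1a on the other strand, with 1926 counts against 697 for Pgm3 in total and a log2 fold change of 0.25 (adjusted p = 0.175).

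Uap1 (ENSMUSG00000026670, chr1:170141938-170174957, minus strand) encodes the enzyme that spends UTP to make UDP-GlcNAc. Vehicle samples 1 to 4 had 54.2, 54.6, 63.3 and 71.2 CPM, and AG636 samples 1 to 4 had 77.8, 59.4, 77.2 and 80.8 CPM. In AG636 3 of 4 samples lay above the highest Vehicle sample, and replicate 2 sat among Vehicle samples. The log2 fold change was 0.28 (SE 0.13, 95% interval 0.00 to 0.56; adjusted p = 0.162 by limma-voom), which did not pass.

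Nagk (ENSMUSG00000034744, chr6:83794982-83804018, plus strand) encodes the salvage kinase. It was at 21.0, 19.7, 21.4 and 21.1 CPM in Vehicle samples 1 to 4, and AG636 samples 1 to 4 had 29.1, 19.6, 39.6 and 20.4 CPM. Vehicle samples were tightly grouped and AG636 samples were split, with replicates 1 and 3 above every Vehicle sample and replicates 2 and 4 near the lowest. The log2 fold change was 0.32 (95% interval -0.14 to 0.78; adjusted p = 0.326), and it was 0.12 without AG636 replicate 3. Pgm3, Nagk and Ugp2 were each highest in AG636 replicate 3. Summed markers of mature myeloid cells split the AG636 samples along the same line as Nagk, with 17.4 and 21.4 CPM in replicates 1 and 3 and 158 and 197 CPM in replicates 2 and 4 (44.3 to 100.1 CPM in Vehicle). That split came mostly from S100a8 and S100a9, and Cxcr2 and Csf1r, both scarce, did not follow it. Summed markers of megakaryocytes (61.0 CPM, against at most 35.3 in the other 7 samples) and of mast cells and basophils (1386 CPM, against 612 to 1063) were highest in AG636 replicate 3. The part of those cells in the result was not tested, and in bulk samples fewer cells of a type and less RNA per cell cannot be told apart.

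Ugp2 (ENSMUSG00000001891, chr11:21321138-21371201, minus strand), which makes UDP-glucose, had 28.7, 20.4, 27.1 and 27.5 CPM in Vehicle samples 1 to 4 and 22.9, 17.6, 37.0 and 26.3 CPM in AG636 samples 1 to 4. Ugdh (ENSMUSG00000029201, chr5:65413221-65435949, minus strand), which oxidizes UDP-glucose to UDP-glucuronate, had 28.8, 32.9, 27.2 and 26.8 CPM in Vehicle and 33.0, 25.9, 32.4 and 25.9 CPM in AG636. Both sets of groups interleaved. The log2 fold changes were -0.04 (95% interval -0.49 to 0.41; adjusted p = 0.917) for Ugp2 and 0.01 (95% interval -0.27 to 0.29; adjusted p = 0.969) for Ugdh. These intervals leave room for a fold of 0.710 to 1.33 in Ugp2 and of 0.831 to 1.22 in Ugdh.

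Ogt (ENSMUSG00000034160, chrX:101640060-101684351, plus strand) encodes O-GlcNAc transferase. Vehicle samples 1 to 4 had 107, 109, 99.2 and 102 CPM, and AG636 samples 1 to 4 had 136, 171, 130 and 107 CPM. In AG636 3 samples lay above the highest Vehicle sample and replicate 4 did not. The log2 fold change was 0.36 (SE 0.13, 95% interval 0.08 to 0.64; adjusted p = 0.0822 by limma-voom), and it passed without AG636 replicate 4 (0.49, adjusted p = 0.0179), with DESeq2 (0.40, adjusted p = 0.0285) and with library size alone (0.43, adjusted p = 0.0341).

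Oga (ENSMUSG00000025220, chr19:45750261-45783520, minus strand) encodes O-GlcNAcase. Vehicle samples 1 to 4 had 124, 129, 115 and 116 CPM, and AG636 samples 1 to 4 had 73.6, 99.3, 119 and 102 CPM. Only AG636 replicate 3 lay within the Vehicle range. The log2 fold change was -0.32 (SE 0.13, 95% interval -0.60 to -0.03; adjusted p = 0.126 by limma-voom), which did not pass, and it was -0.42 without AG636 replicate 3 (adjusted p = 0.0408). Oga shares 551 exon bases with Gm15491 on the other strand, none of them among the last 500 exon bases of the gene as a whole, though 22.7% of the 75-base windows in the last 500 bases of its annotated transcripts also occur in Gm15491, and Gm15491 had 77 counts against 5735 for Oga.

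The log2 fold changes of Ogt and Oga had opposite signs, and the number of Ogt counts per Oga count separated the groups. In Vehicle samples 1 to 4 it was 0.859, 0.843, 0.866 and 0.880 (0.862 ± 0.0155, SD, n = 4), so that Oga was the more abundant in each. In AG636 samples 1 to 4 it was 1.85, 1.72, 1.09 and 1.05 (1.43 ± 0.414), so that Ogt was the more abundant in each. The mean log2 ratio was 0.68 higher in AG636, with 0.54 to 0.81 when each sample was left out. Library scaling cancels within a sample. The ratio is given as a description, with no test. Opposite signs of the changes favor a separation of the ratio, and the share of gene pairs whose ratio separates the groups was not computed. Taken alone, Ogt and Oga each overlapped between the groups, whereas 22.2% of all genes tested did not overlap.

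**Figure D3:**
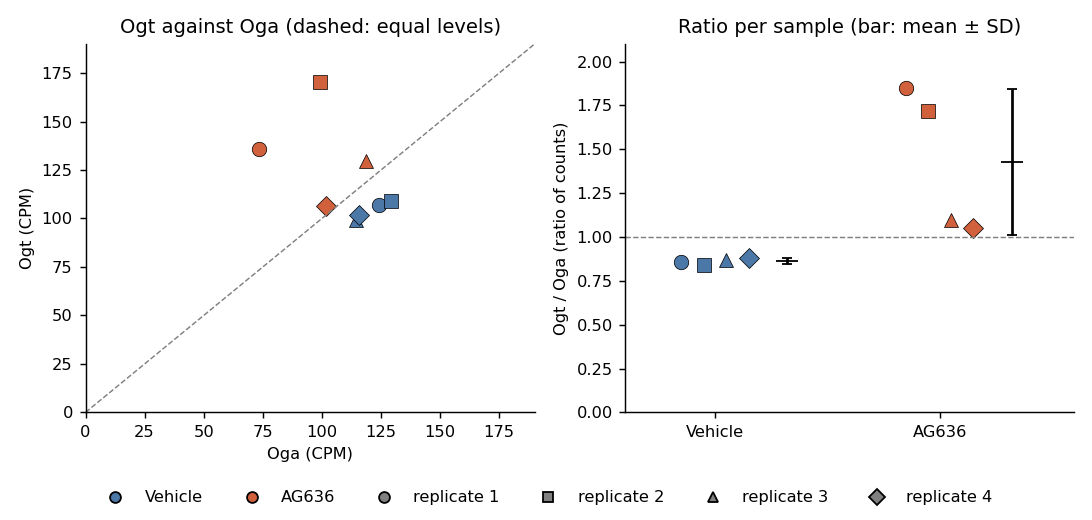
Ogt against Oga in TMM-scaled CPM (left) and Ogt counts per Oga count (right). Each point is 1 sample, the dashed line marks equal levels, and the bar is the mean ± SD of 4 samples. The 4 Vehicle samples lie between 0.843 and 0.880, and AG636 samples between 1.05 and 1.85.

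The profiles most like those of Ogt, Oga and Gfpt1 were searched among the 5260 genes whose log2 CPM averaged 5 or more, by the root mean square (RMS) difference of mean-centered log2 CPM over 8 samples. For Ogt they were Chd2 (0.0614) and Chd6 (0.0636), which encode chromatin remodelers, against an RMS of the profile of Ogt itself of 0.251. For Oga they were Cdc37 (0.0644), an HSP90 cochaperone, and Sms (0.0711), spermine synthase, against 0.242. For Gfpt1 they were Tenm4 (0.175) and Cenpt (0.183), against 0.407, so that no gene followed Gfpt1 as closely as these followed Ogt and Oga.

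The wider network was described by 98 further genes in 7 lists, of which 89 were tested. Of these 14 were called (15.7%, against 14.0% of all genes), 4 higher and 10 lower, with a median log2 fold change of -0.06. The list named UMP to UTP supply gave 7 of those calls: of 12 tested (of 15), 6 were lower and 1 higher in AG636, 58.3% in all, with a median log2 fold change of -0.34. It also holds de novo enzymes that lead to UMP (Cad, Dhodh, Umps), uridine kinases (Uck1, Uck2, Uckl1) and the CTP synthases that spend UTP. Of its called genes, only Cmpk1 and Nme1 act between UMP and UTP. In 3 lists the called share was nearer the 14.0% of all genes. It was 2 of 12 other UDP-sugar enzymes (16.7%), 2 of 8 nucleotide sugar transporters (25%) and 3 of 19 tested (of 23) enzymes that use UDP-GlcNAc (15.8%). Of the other lists, none of the 13 amino sugar genes, of the 15 tested (of 16) OGT partners and substrates, or of the 10 tested (of 11) genes that supply fructose 6-phosphate passed by limma-voom. An unadjusted p under 0.05 was reached by 3, 3 and 0 of them, and edgeR called 0, 0 and 0 and DESeq2 2, 1 and 0.

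**Figure D4:**
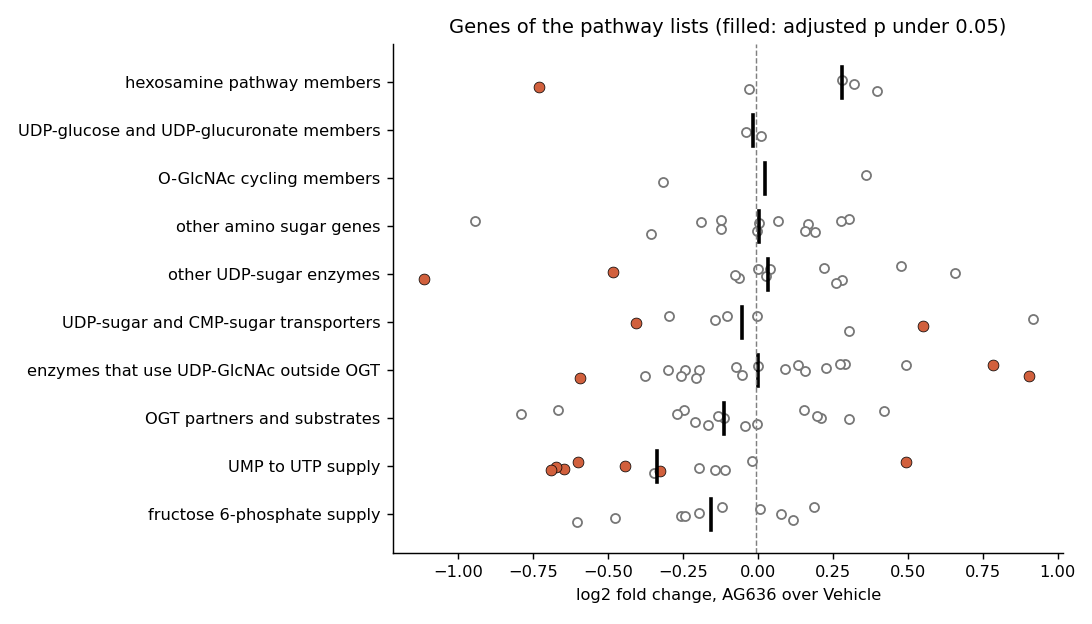
Log2 fold change of AG636 over Vehicle for the genes of each list. Filled points passed an adjusted p of 0.05, black bars mark list medians, and the dashed line marks the median of all genes tested (-0.01). The UMP to UTP supply list holds 7 of the 14 genes called outside the 9 members.

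Of this list Cad, which encodes the trifunctional enzyme that starts de novo synthesis, had 94.4, 95.6, 87.6 and 101 CPM in Vehicle samples 1 to 4 and 47.9, 59.9, 65.7 and 79.6 CPM in AG636 samples 1 to 4 (log2 fold change -0.60, SE 0.14, adjusted p = 0.0166). Umps, which makes UMP from the product of DHODH, had 55.3 to 65.5 CPM in Vehicle and 32.3 to 42.6 CPM in AG636 (-0.69, SE 0.11, adjusted p = 0.00411). Ctps, CTP synthase, which consumes UTP, had 68.6 to 79.3 CPM in Vehicle and 41.3 to 53.2 CPM in AG636 (-0.65, SE 0.10, adjusted p = 0.00393). The groups did not overlap for these 3 genes, which were named because they passed the threshold, and for 22.2% of all genes tested. Each of the 3 stayed called under all 19 alternatives. Nme1, a nucleoside diphosphate kinase, was at 259 ± 23.3 CPM in Vehicle and 164 ± 31.1 CPM in AG636 (-0.67, SE 0.13, adjusted p = 0.00946) and also stayed called. Nme2 and Nme3 were not tested, with at most 1 and 2 counts in a sample. The last 500 exon bases of Nme2 lie almost fully (495) in Gm20390 and those of Nme3 (497) in Mapk8ip3 and Mrps34, and how reads in such shared exons were counted was not stated, so that these low counts are uncertain.

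Cmpk1 (-0.45, adjusted p = 0.0203) and Uck1 (-0.33, adjusted p = 0.0335) were lower and Uckl1 (0.50, adjusted p = 0.0218) was higher, but were less stable. Cmpk1, the UMP kinase, lost its call without Vehicle replicate 1 or 3 (adjusted p 0.0666 and 0.0690). Uck1 lost it without any of the 4 Vehicle replicates or AG636 replicate 2 or 3 (adjusted p 0.0508 to 0.0935), with library size alone (0.101), with no filter (0.114) and with Vehicle 4 and AG636 3 both out (0.111), and Uckl1 without any Vehicle replicate or AG636 replicate 1 (adjusted p 0.0519 to 0.0638). Dhodh itself, the target of AG636, was at 29.6 to 38.8 CPM in Vehicle and 26.8 to 32.5 CPM in AG636 (-0.14, adjusted p = 0.442).

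Outside that list, Galk1, which phosphorylates galactose on the route to UDP-galactose, showed the largest fall of any tested list gene, from 87.0, 85.8, 77.5 and 81.7 CPM in Vehicle samples 1 to 4 to 33.6, 21.9, 54.7 and 52.2 CPM in AG636 samples 1 to 4 (log2 fold change -1.12, SE 0.23, adjusted p = 0.0110). Galk2, whose product phosphorylates N-acetylgalactosamine, was called too (-0.48, adjusted p = 0.0376), but not without any Vehicle replicate or AG636 replicate 1, 2 or 4 (adjusted p 0.0578 to 0.104), with library size alone (0.0660) or with no filter (0.0753). Dpagt1, the enzyme that uses UDP-GlcNAc for the first step of the N-glycan lipid precursor, fell from 51.4 ± 4.84 to 34.0 ± 2.96 CPM (-0.59, SE 0.11, adjusted p = 0.00685). Its groups did not overlap, as for 22.2% of all genes tested, and its call held under all 19 alternatives. Among the other genes that use UDP-GlcNAc, Mgat4a (0.78, SE 0.18, adjusted p = 0.0160), which adds a branch to N-glycans, and Piga (0.91, SE 0.24, adjusted p = 0.0337), of the first step of GPI anchor synthesis, rose. Mgat4a lost its call without Vehicle replicate 2 or 3 (adjusted p 0.0524 and 0.0547) and Piga without any Vehicle replicate or AG636 replicate 1 (0.0693 to 0.0959). Among nucleotide sugar transporters Slc35a4 fell (-0.41, SE 0.10, adjusted p = 0.0264) and Slc35a5 rose (0.55, SE 0.16, adjusted p = 0.0454). Slc35a4 was not called without Vehicle replicate 2, 3 or 4 or AG636 replicate 1 (adjusted p 0.0610 to 0.0781), with library size alone (0.0607), with no filter (0.0679) or with Vehicle 4 and AG636 3 both out (0.102). Among single omissions Slc35a5 was called only with AG636 replicate 2 left out (adjusted p 0.0509 to 0.130 in the other 7), and it was not called with no filter (0.124), with the replicate block (0.0637) or with Vehicle 4 and AG636 3 both out (0.0616).

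The tested gene with the smallest p in each list with no call was also followed. Nans, sialic acid synthase, had 86.7, 78.8, 79.4 and 79.0 CPM in Vehicle and 54.3, 57.3, 70.4 and 72.4 CPM in AG636 samples 1 to 4 (-0.36, SE 0.11, adjusted p = 0.0508). Its groups did not overlap, as for 22.2% of all genes tested. Nans passed in 5 of 19 alternatives: without AG636 replicate 3 or 4 (adjusted p 0.0350 and 0.0298), with DESeq2 (0.0429), with limma-trend (0.0490) and with sample quality weights (0.0302). Asxl1, a subunit of the BAP1 deubiquitinase complex, was at 93.7 ± 6.20 CPM in Vehicle and 116 ± 12.2 CPM in AG636 (0.30, adjusted p = 0.0579), and passed in 6 of 19 alternatives: without AG636 replicate 3 (0.0384), with DESeq2 (0.0187), RLE factors (0.0468), library size alone (0.0218) or the minimum of 10 counts (0.0404), and without mitochondrial genes (0.0499). Slc2a3, a glucose transporter, was at 114 ± 31.2 and 81.3 ± 47.9 CPM (-0.60, adjusted p = 0.258), with 149 CPM in AG636 replicate 3, without which it was -0.95 (adjusted p = 0.0341), and with Vehicle 4 also out it was -1.14 (adjusted p = 0.00746). Yy1, an OGT substrate, was at 192 ± 3.33 CPM in Vehicle and 187 ± 17.4 CPM in AG636 (-0.04, 95% interval -0.23 to 0.14, adjusted p = 0.773).

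The summed markers of erythroid cells and of mast cells and basophils were high in every sample. Those of B cells, T and NK cells and megakaryocytes were scarce. The mast cell and basophil sum came mostly from Ms4a2 (540 to 1074 CPM over all samples) and Cpa3 (34.4 to 285 CPM). The other markers of that list, Mcpt8, Fcer1a and Prss34, were at most 17.9 CPM in any sample. The erythroid sum ran from 2331 to 6141 CPM in Vehicle and from 4752 to 6235 CPM in AG636, that of T and NK cells from 10.6 to 16.4 and from 11.3 to 26.0 CPM, and that of stem and progenitor cells from 917 to 1098 and from 1054 to 1263 CPM. Mast cell and basophil markers summed to 818 to 1032 CPM in Vehicle and 612 to 1386 CPM in AG636, megakaryocyte markers to at most 18.1 CPM in Vehicle and 13.1 to 61.0 CPM in AG636, and B cell markers to 6.61 to 14.0 CPM in Vehicle and 11.8 to 24.1 CPM in AG636. In AG636, 1 of 5 tested B cell markers (Cd79a, with 2 to 7 counts in Vehicle samples) and 1 of 8 tested erythroid markers (Hbb-bt) were called higher. No other marker was called in either direction, whereas 14.0% of all genes tested were called. Gp1bb (megakaryocyte) had 0 counts throughout. The part of the marked cell types in the changes of the 9 genes was not tested.

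**Figure D5:**
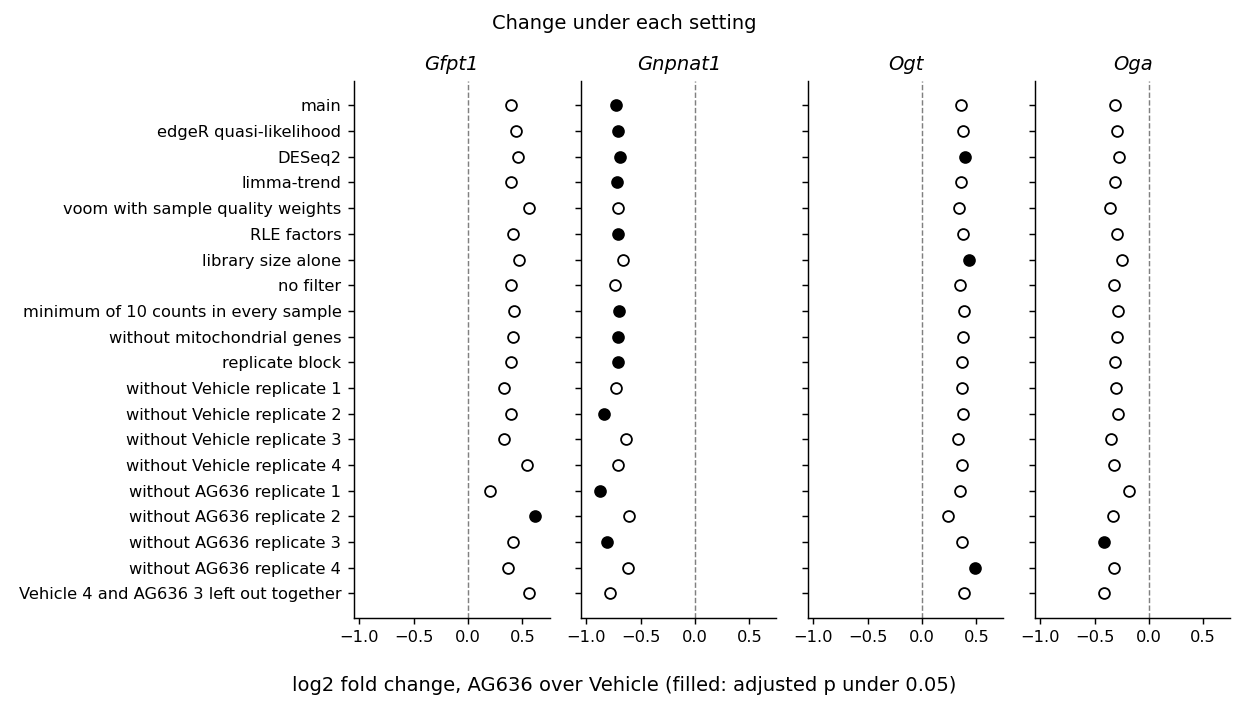
Log2 fold change of 4 genes under the main comparison and 19 alternatives, with filled points where the adjusted p was under 0.05. The values of Gnpnat1 and Oga stay negative and those of Gfpt1 and Ogt positive in every row, while the calls come and go.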

How the data were processed

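RNA of 8 samples (4 Vehicle, 4 AG636) was sequenced after QuantSeq 3′ library preparation. The deposited values are raw counts per gene: the authors removed low-quality reads, trimmed with cutadapt (1.9.1 in the processing notes), mapped to mm10/GRCm38 with HISAT2 (2.0.4) and counted with featureCounts of Subread (1.5.0-p3); the study's methods give other versions of cutadapt and Subread. Whether counting used strand, and how reads in overlapping genes or several places were treated, is not given in the sources used here. Samples were grouped by title. Genes were kept by filterByExpr (minimum count 10), scaled by TMM, and compared with limma-voom in R 4.3.3 (edgeR 4.0.16 and limma 3.58.1), group being the only term, two-sided, with Benjamini-Hochberg adjustment over 10911 genes. The fit was tested on simulated data. Other settings were tried one at a time: DESeq2 (1.42.0), the quasi-likelihood test of edgeR, limma-trend and sample quality weights as tests; RLE factors or the plain library size as scaling; no filter, or 10 counts required in every sample; exclusion of mitochondrial genes; a replicate block; omission of single samples; and omission of Vehicle 4 with AG636 3. The members, lists and samples to leave out were chosen with earlier results of these data known. Named genes are the 9 members, the called genes of each list or, with none called, the gene with the smallest p, and the 2 most similar profiles for Ogt, Oga and Gfpt1; Dhodh, Yy1, Nme2, Nme3, Kdm1b and the neighbors of members were added after their values were seen.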

Additional observations from a re-analysis of the deposited data

Results flagged for a closer look

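Within-group values of the 9 genes, the Ogt to Oga ratio and the library total were each compared for a sample far from the other 3, which made 22 comparisons, and 1 stood out where chance gives about 1.1. Uap1 in AG636 replicate 2 was at 5.8993 on the log2 CPM scale, against 6.28 to 6.34 in the other AG636 samples.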

How the results depend on the processing

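Over 19 alternatives, 156 of 171 values of the 9 genes kept their direction, and 260 of 323 values of the other named genes kept direction and side of the threshold. The number of members called was 2 with DESeq2 (Gnpnat1 and Ogt), 0 with sample quality weights, 0 with no filter, 0 with Vehicle 4 and AG636 3 left out together, and 0 to 2 with 1 sample left out. Gnpnat1 was not called with sample quality weights (-0.71, adjusted p = 0.0522), library size alone (-0.66, 0.0629), no filter (-0.73, 0.0555) or both samples out (-0.79, 0.0615), and ranged from -0.88 to -0.61 when each sample was left out. Ogt was called with DESeq2 (0.40, 0.0285) and library size alone (0.43, 0.0341), and ranged from 0.24 to 0.49 over single omissions. Over the same omissions Oga ranged from -0.42 to -0.19 and Gfpt1 from 0.20 to 0.61. Values near 0 changed sign: Pgm3 with DESeq2 (0.016), library size alone (0.041) and the minimum of 10 counts (0.00063), and from -0.16 to 0.098 over single omissions; Ugp2 with DESeq2 (0.018) and library size alone (0.026), and from -0.22 to 0.12; Ugdh with both samples out (-0.055), and from -0.052 to 0.085. Single omissions moved the genes called over the table from 688 to 1706, called list genes from 6 to 20, calls in the UMP to UTP list from 4 to 7, the difference in library totals from -538710 to -320560 counts, and up to 2 members changed place in the level order (Vehicle without replicate 2, AG636 without replicate 1). The cause was not tested. With library size alone the split of calls was 918 higher and 571 lower (38.3% lower), against 597 higher and 926 lower (60.8% lower) in the main comparison, and the median over all genes was 0.06. Replicate numbers did not pair the samples: same-numbered samples correlated at -0.14, 0.01, 0.20 and 0.14 in their deviations, and not every sample correlated best with its own number. With the replicate block, 1446 genes were called, Gnpnat1 was -0.71 (adjusted p = 0.0294), and Slc35a5 and Uck1 lost their calls. Gnpnat1 and Pgm3 had the lowest counts, with 54 to 150 and 73 to 109 per sample. Their 3′ ends lie in exons of other genes, and the part of read assignment in these low counts was not tested.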

Other observations

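The ratio of Gfpt1 to Gnpnat1 counts, chosen after its values were seen and given with no test, was 17.2 to 31.5 in Vehicle (25.0 ± 7.18, SD, n = 4) and 43.2 to 70.3 in AG636 (54.0 ± 12.8), with no overlap. These are the members with the highest and the lowest log2 fold change, so that the choice favored a separation. Each overlapped between the groups when taken alone, and the share of gene pairs that separate was not computed. Of the 75-base windows in the last 500 bases of each annotated transcript, 56.7% for Gnpnat1, 47.2% for Pgm3, 22.7% for Oga and 6.56% for Ugdh also occur in transcripts of other genes, and 0% for Gfpt1, Uap1, Nagk, Ugp2 and Ogt. Some 3′ ends of list genes lie in exons of abundant neighbors on the other strand: the last 500 exon bases of Kdm1b (375 counts in total) lie in Dek (40435 counts).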
